A study of Mus musculus with 4 samples.

Results

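The motile cilium axoneme genes are 43 mouse genes, most of whose proteins build or assemble the beating core of motile cilia. They include 7 classed as other cilium genes, and they were examined in cultures from Alzheimer's disease model mice. The genes were named from textbook roles and were picked with the genotype ratios of these arrays known, so their ratios are given as a description. A probe counted as a member if it was no control and carried a RefSeq accession of one of these genes, which gave 59 of the 55681 probes on the array, for 40 of the 43 genes. No probe matched Dnah3, Dnah12 or Ccdc40. A further 8 genes (Dnah9, Dnah1, Dnaaf1, Spag6, Spag16, Spag17, Efhc2 and Ak7) had only probes too dim to keep. The remaining 32 genes were measured, among 20591 features tested in the whole series.

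The series compared APPswe/PS1dE9 cultures, from mice with mutant APP and presenilin transgenes of familial Alzheimer's disease, with wild-type (WT) cultures. Both came from C57BL/6 mice: neural precursor cells of the telencephalon at embryonic day 13 grew for 5 days as neurospheres in EGF and FGF2, and then differentiated for 7 days on poly-L-lysine and laminin without these factors. On each of 4 two-colour arrays, 1 APPswe/PS1dE9 RNA was set against 1 WT RNA. The APPswe/PS1dE9 RNA carried Cy3 on replicates 1 and 2 and Cy5 on replicates 3 and 4. The submitters call the samples biological replicates without naming their animals or litters, so errors and tests measure only how far these arrays differ. The labels give no promoter for the transgenes and no cell counts of the cultures.

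A motile cilium beats because dynein motors, held in outer and inner arms on a ring of microtubule doublets, slide neighbouring doublets against each other. Nexin links and radial spokes turn that sliding into bending, a central pair of microtubules patterns it, and proteins inside the doublets stiffen them. Dynein arms are assembled in the cytoplasm by dedicated factors before transport into the cilium. In the brain, such cilia are carried in tufts by ependymal cells, which line the ventricles and move cerebrospinal fluid. Cultures of differentiating neural precursors can contain such cells.

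Transcription factors of the RFX family bind an element called the X-box, which is known from the promoters of many cilium genes. Its occurrence was described here because sequence played no part in the choice of the genes. RefSeq promoter windows of assembly GRCm38.p6, which run from 250 bases before to 50 bases after a start site, were at hand for 38 of the 43 genes. Dnah3, Dnaaf1, Rsph1, Rsph4a and Stk33 had none. The X-box was searched on both strands as GTNNCC and GGNAAC with 2 free bases between them, where N is any base. An exact match stood in 3 of the 38 genes (7.89%), against 1.49% of 27025 genes with a window. With at most 1 mismatch, 15 of 38 genes held one (39.5%), against 9.12% of all genes. Matches in the 30-base stretches below are in capitals, and each stretch reads 5′ to 3′ on the strand of its gene. The exact matches are shown first, at chr3:106001496-106001525 (minus strand), chr17:25471422-25471451 (plus strand) and chr9:107547296-107547325 (plus strand).
Pifo: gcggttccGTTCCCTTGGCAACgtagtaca
Tekt4: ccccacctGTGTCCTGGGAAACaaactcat
Zmynd10: gctccctcGTTTCCATGGCGACgacgactc

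Of the genes with 1 mismatch, those with ratios of at least 0.73 are shown for comparison, a choice made by ratio. The sites lay at chr9:44240517-44240546 (plus strand), chr8:95534078-95534107 (plus strand), chr2:21205356-21205385 (minus strand), chr11:67965637-67965666 (minus strand), chr11:72361876-72361905 (minus strand), chr4:125065644-125065673 (minus strand) and chr5:30281366-30281395 (plus strand).
Ccdc153: gttttccaGTTGCCTGGACAACgtgcagta
Ccdc113: agcgttcaGTTGTCTAGGCAACgcgcctca
Enkur: tagcaactGTTTCCTTAGCAACcacgtggt
Cfap52: gtgcgccaGTTACCATGACGACcaggagac
Tekt1: tccgtccgGTTGCCATAGAGACcgcagttt
Dnali1: gaggagggGTTTCCATGGTGATcgcaaaca
Drc1: gtgactgcTTTCCCTTGGCAACggcttgtt

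Most of these stretches sat close to the annotated start. The first base of the match lay 14 bases before it in Ccdc113, 12 in Enkur, 16 in Cfap52, 15 in Tekt1, 8 in Dnali1 and 19 in Drc1, at the start itself in Zmynd10, and 20 bases before it in Pifo. In Ccdc153, the gene with the largest ratio, the match shown lay 152 bases upstream, and a second one lay 5 bases after the start. In Tekt4 the exact match shown lay 160 bases upstream, and another with 1 mismatch lay at the start. Dnah10, Hydin, Rsph9, Spag16 and Spag17 also held a match with 1 mismatch. The windows of Dynlrb2, Tmem212, Meig1 and Dnah6, whose ratios were also large (1.19 to 1.59), held none. Genotype ratios (log2 of APPswe/PS1dE9 over WT) ran from 0.22 to 1.84 in the 13 measured genes with a match (median 0.96) and from -0.03 to 1.59 in the 16 with a window and no match (median 0.59), so they overlapped widely. The whole window of Ccdc153 (chr9:44240427-44240726, plus strand) and that of Zmynd10 (chr9:107547054-107547353, plus strand), a dynein assembly factor with an exact match, are shown with their matches in capitals.
Ccdc153: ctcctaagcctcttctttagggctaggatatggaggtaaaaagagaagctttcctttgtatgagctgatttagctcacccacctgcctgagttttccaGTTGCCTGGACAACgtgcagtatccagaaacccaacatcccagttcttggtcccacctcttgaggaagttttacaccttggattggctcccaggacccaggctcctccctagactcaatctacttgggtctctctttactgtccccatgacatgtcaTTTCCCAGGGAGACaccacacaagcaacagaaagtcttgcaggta
Zmynd10: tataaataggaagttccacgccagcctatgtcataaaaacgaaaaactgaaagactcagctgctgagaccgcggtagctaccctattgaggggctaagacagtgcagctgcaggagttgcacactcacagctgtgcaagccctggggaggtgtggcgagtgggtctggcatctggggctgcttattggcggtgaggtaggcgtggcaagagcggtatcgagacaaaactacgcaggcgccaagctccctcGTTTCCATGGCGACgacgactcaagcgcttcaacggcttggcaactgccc

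Other motifs were searched in the same windows, on both strands. The RFX core GTTGCCA, which can overlap an X-box, stood in 7 of the 38 genes (18.4%), against 5.02% of all genes. The forkhead core TGTTTAC, a sequence bound by Foxj1 and other forkhead factors, stood in 1 (2.63%), against 4.05%, and TATAAA in 5 (13.2%), against 15.7%. GC content had a median of 53.3% in the windows of the axoneme genes and 52.7% over all windows. A match is a description of letters and not a binding site, and a missing match says only that these letters are not in this window. Other axoneme genes outside the 43 held the X-box with at most 1 mismatch in 17 of 44 cases (38.6%).

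RNA of the axoneme genes was higher in the APPswe/PS1dE9 cultures on nearly every array. Values are log2 ratios of APPswe/PS1dE9 over WT, corrected for background with an offset and normalized within each array, and fitted over the 4 arrays with their SE. A feature was called at an adjusted p under 0.05 over all features. Of the 32 measured genes, 29 were called higher, 0 lower and 3 (Dnah11, Hydin and Tekt2) neither. In the whole series, 8.25% of features were called higher and 2.28% lower, and since this comparison was in view when the genes were picked, nothing is read from the difference. The median ratio of the 32 was 0.71, against 0.01 over all features, and 11 genes were at least 2-fold higher, as were 0.991% of all features. Tekt2 was the 1 gene not higher on 4 of 4 arrays, which 16.9% of all features were. In channel values also normalized between arrays, every APPswe/PS1dE9 channel lay above every WT channel in 26 genes (7.99% of all features). In 0 genes every APPswe/PS1dE9 channel lay below (4.49% of all features). The processed signals given below are not normalized between arrays, and there the channels of such a gene can overlap. The genes passed the filter on dim probes partly through the APPswe/PS1dE9 channel, so the 11 that were not measured are not covered by these counts. In RNA from whole cultures, more cells of a type and more RNA per cell cannot be told apart.

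**Figure D1:**
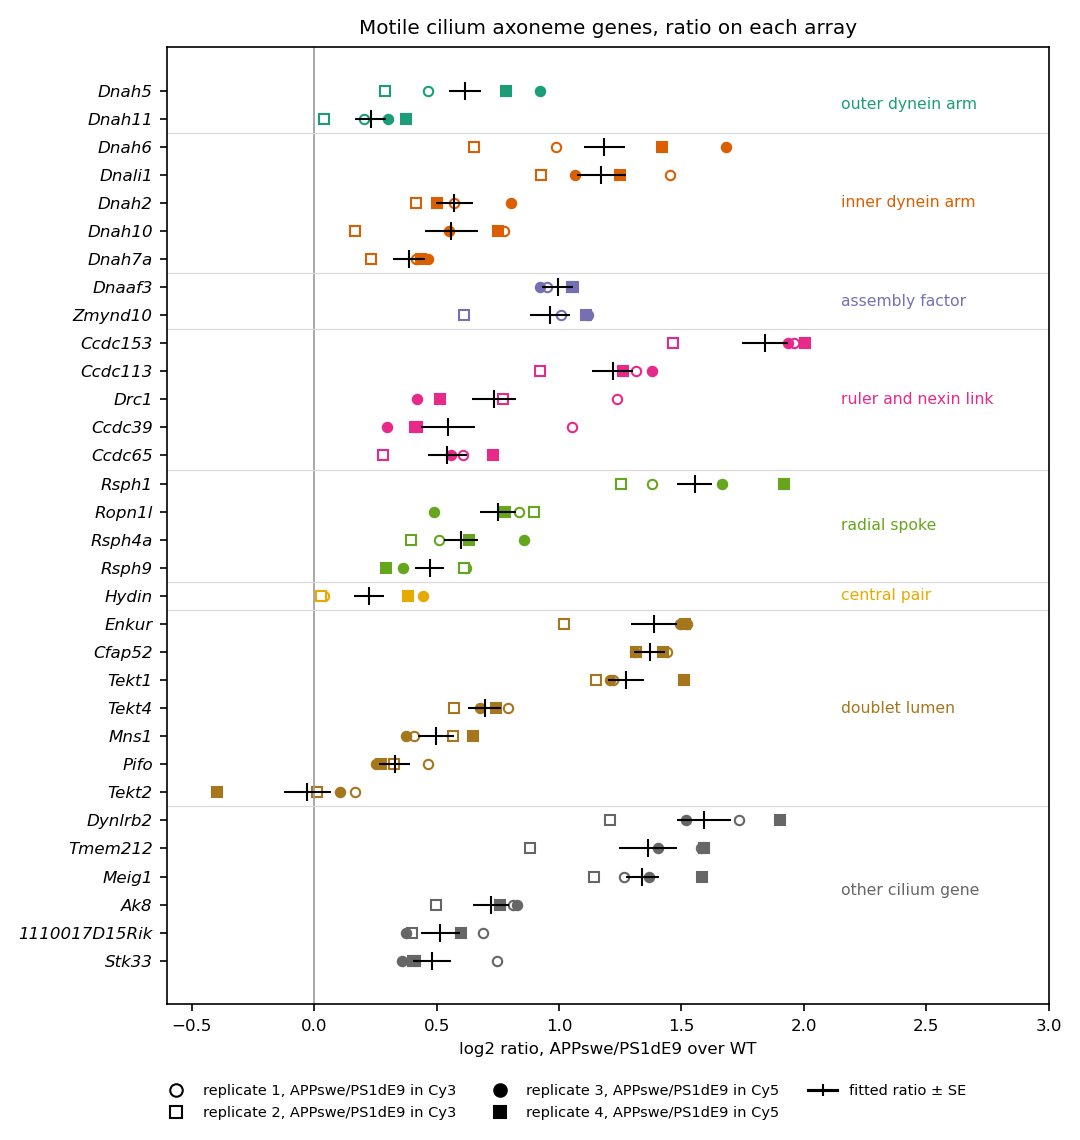
Log2 ratio of APPswe/PS1dE9 over WT on each array (x axis) for the 32 measured axoneme genes (y axis), grouped by role; open symbols are arrays with APPswe/PS1dE9 in Cy3, filled symbols those with it in Cy5, and black bars are the fitted ratio ± SE. All points lie right of 0 except Tekt2 on replicate 4, at -0.40.

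The heavy chains of the outer dynein arm, the motors that set beat frequency, had a median of 0.42, against 0.57 in the inner arm. Dnah5, a principal outer arm heavy chain, was at 0.47, 0.29, 0.92 and 0.78 on replicates 1 to 4, with a fitted ratio of 0.62 ± 0.07. All 4 arrays were above 0, and those with APPswe/PS1dE9 in Cy5 were the higher ones. Its processed signals were 43.6, 42.1, 146 and 101 in APPswe/PS1dE9 and 21.8, 30.2, 51.3 and 37.9 in WT, and it was well above background on 4 arrays in APPswe/PS1dE9 and on 3 in WT. Dnah11, a heavy chain of the same arm, was at 0.20, 0.04, 0.30 and 0.37 and was not called (0.23 ± 0.06). It was well above background in APPswe/PS1dE9 on 3 of 4 arrays and in WT on 2. Dnah9 was not well above background in either culture on any array.

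The 5 measured genes of the inner dynein arm, whose motors shape the waveform, were all called higher, as were 8.25% of all features. Their median was 0.57. The heavy chain gene Dnah6 had the largest ratio of the class, at 0.99, 0.65, 1.68 and 1.42 (1.19 ± 0.08). Its processed signals were 206, 112, 507 and 335 in APPswe/PS1dE9, against 81.8, 74.8, 114 and 100.4 in WT. APPswe/PS1dE9 was the higher channel on each array. Dnali1, a light intermediate chain of the inner arm, was at 1.17 ± 0.10 and well above background in all 8 channels. Dnah2 (0.57 ± 0.08) and Dnah10 (0.56 ± 0.11) were dimmer heavy chain genes, well above background in WT on 2 of 4 arrays each. With the scanner software's processed signals, which carry no offset and have their own dye normalization, these 2 dim genes were at 1.31 and 1.36, and Dnah10 then was not called. Dnah7a was the lowest, at 0.42, 0.23, 0.46 and 0.43 (0.39 ± 0.06), with WT well above background on 1 array. Dnah7a has near-identical copies, Dnah7b and Dnah7c, that a probe may not tell apart. Of 3 probes each for Dnah7a and Dnah10, 1 was kept and the others were below the filter. On single arrays those dim probes ran from -0.03 to 0.48 for Dnah7a and from -0.28 to 0.18 for Dnah10. Dnah1 was not well above background in either culture.

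Both measured dynein assembly factors were about 2-fold higher. Dnaaf3, which acts in the cytoplasmic preassembly of dynein arms, was at 0.95, 1.05, 0.92 and 1.05, with the smallest spread between arrays of the 2 (0.99 ± 0.06). Zmynd10, which acts in the same process, was at 1.01, 0.61, 1.12 and 1.11 (0.96 ± 0.08), with replicate 2 the lowest. Signals of Dnaaf3 were 282, 140, 277 and 249 in APPswe/PS1dE9 and 123, 69.9, 113 and 91.0 in WT, and the lowest APPswe/PS1dE9 signal lay above the highest WT signal. Dnaaf1 was not well above background in either culture, although its 1 probe was on the array.

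The ruler and nexin link class held the gene with the largest ratio of all 32. Ccdc153, an axonemal coiled-coil gene, was at 1.96, 1.47, 1.93 and 2.00 (1.84 ± 0.09), a 3.58-fold difference. Its processed signals were 737, 267, 833 and 667 in APPswe/PS1dE9 and 168, 83.2, 153 and 113 in WT. Both signals were lowest on replicate 2, and so was the ratio. Ccdc113, another axonemal coiled-coil gene, followed at 1.22 ± 0.08. Drc1, a core subunit of the nexin-dynein regulatory complex, was at 0.73 ± 0.09, and its ratio was larger on the arrays with APPswe/PS1dE9 in Cy3 (mean 1.00) than on those with it in Cy5 (mean 0.47). Ccdc39, which with Ccdc40 forms the molecular ruler that spaces arms and spokes, showed the same order, with means of 0.73 and 0.36 (fitted 0.55 ± 0.11). The lowest of the class was Ccdc65, another regulatory complex subunit, at 0.61, 0.28, 0.56 and 0.73 (0.54 ± 0.08). Of its 3 probes 1 was kept, and the dim ones ran from -0.0045 to 0.55 on single arrays.

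All 4 radial spoke genes were called higher, as were 8.25% of all features, and the spread within the class was wide. Rsph1, a spoke head protein, was at 1.38, 1.25, 1.66 and 1.92 (1.55 ± 0.07), while its second probe was at 0.92. The 2 probes of Rsph1 thus agreed in direction and differed in size. Ropn1l, a spoke stalk protein, was at 0.75 ± 0.07, with a second probe at 0.50, and the spoke head gene Rsph4a was at 0.60 ± 0.07, with a second probe at 0.69. Rsph9, also of the spoke head, was at 0.62, 0.61, 0.36 and 0.29 (0.47 ± 0.06) and was the lowest of the class. Its processed signals were 2285, 1503, 2646 and 2453 in APPswe/PS1dE9 and 1493, 970.2, 2098 and 1985 in WT, with APPswe/PS1dE9 the higher channel on each array.

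The central pair was the class with the fewest measured genes. Hydin, a very large protein of the central pair projections, was at 0.04, 0.03, 0.44 and 0.38 and was not called (0.22 ± 0.06). With an offset of 10 it was called higher, at 0.32, which made 30 axoneme genes called. The ratio was near 0 on both arrays with APPswe/PS1dE9 in Cy3 and positive on both with it in Cy5. Spag6 was well above background on 1 of 4 arrays in APPswe/PS1dE9 and 1 in WT, as was Spag16, and Spag17 was so on 1 array in APPswe/PS1dE9 and 0 in WT. The RefSeq table carries Spag6l as a separate gene whose synonyms include Spag6, and Spag6l, which was added after its values were seen and is no member of the 43, was at 1.19, 0.65, 0.82 and 1.10 (0.94 ± 0.11). With processed signals or without replicate 3 or 4, Spag6l kept a ratio between 0.87 and 1.01 and was not called.

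**Figure D2:**
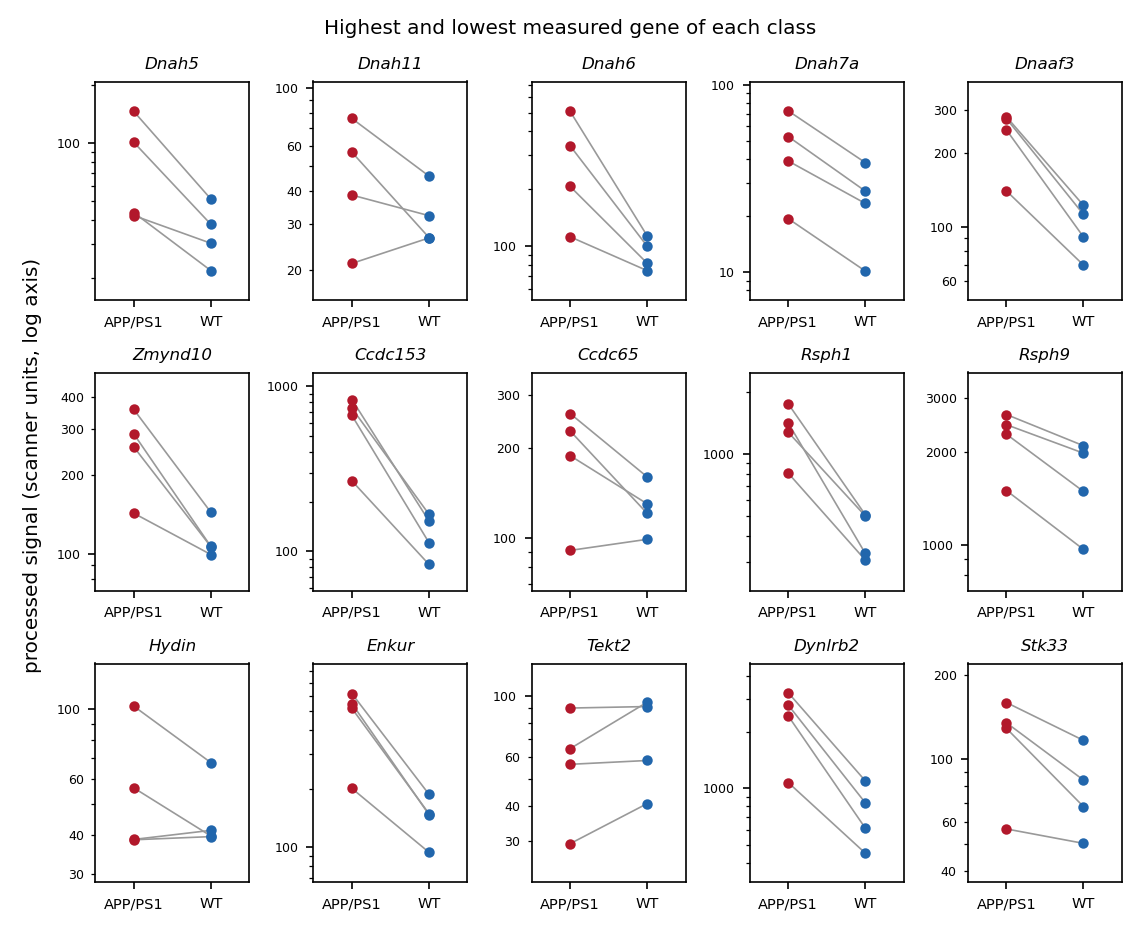
Processed signal in scanner units (log y axis) of the highest and the lowest measured gene of each class in APPswe/PS1dE9 (APP/PS1, red) and WT (blue) cultures; each grey line joins the 2 channels of 1 array. Ccdc153 lies at 267 to 833 in APPswe/PS1dE9 and at 83.2 to 168 in WT, and Tekt2 lies lower in APPswe/PS1dE9 on each array.

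The doublet lumen class is named for proteins that form filaments and bridges inside the microtubules, which was not checked for every gene in it. It held both some of the largest ratios and the 1 gene with a ratio below 0. Enkur was the highest, at 1.52, 1.02, 1.49 and 1.51 (1.39 ± 0.09), followed by Cfap52 (1.37 ± 0.06) and the tektin Tekt1 (1.27 ± 0.07), whose second probe was at 1.25. All 3 of these were well above background in every channel. Tekt4, another tektin, was at 0.70 ± 0.07, Mns1 at 0.50 ± 0.07 and Pifo at 0.33 ± 0.06. Tekt2, the remaining tektin, was at 0.17, 0.01, 0.11 and -0.40, with a fitted ratio of -0.03 ± 0.10. Its processed signals were 56.7, 29.4, 90.3 and 64.5 in APPswe/PS1dE9 and 58.5, 40.9, 91.4 and 94.8 in WT. Those signals were lower in APPswe/PS1dE9 on each array, with the difference largest on replicate 4, whereas the normalized ratios were above 0 on 3 arrays. The fitted sign of Tekt2 turned without replicate 2 (0.01) and without replicate 4 (0.10). Efhc2, which also lies inside the doublets, was well above background on 1 array in APPswe/PS1dE9 and 0 in WT.

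The other cilium genes had a median of 1.03, and all 6 measured ones were called higher, as were 8.25% of all features. That median was the highest of the classes as reported, but the inner arm was higher with processed signals and the deposited value table, and assembly factors with no filter, without replicate 1 and on replicates 2 and 4 alone. With no filter the ruler and nexin link was higher too, and with the strictest filter the inner arm, doublet lumen and assembly factors were. Dynlrb2, a roadblock light chain of dynein, was at 1.74, 1.21, 1.52 and 1.90 (1.59 ± 0.11), a 3.01-fold difference. Its processed signals were 2798, 1075, 3259 and 2448 in APPswe/PS1dE9, against 837, 449, 1098 and 612 in WT. Meig1, known from spermatid differentiation in mice, gave 1.34 with both of its probes. Tmem212, a transmembrane protein gene, was at 1.36 ± 0.12 with WT well above background on 1 array, at 1.96 with an offset of 10, and at 3.14 with processed signals, which differ in both background correction and dye normalization. Ak8, an adenylate kinase gene, was at 0.72 ± 0.07, and 1110017D15Rik was at 0.52 ± 0.08, with a second probe at 0.41. Stk33, a serine/threonine kinase gene, was the lowest, at 0.74, 0.40, 0.36 and 0.41 (0.48 ± 0.08), with a second probe at 0.34. Ak7, the other adenylate kinase gene, was well above background on 2 arrays in APPswe/PS1dE9 and 0 in WT.

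Medians of the 8 classes ran from 0.22 in the central pair, with 1 gene, and 0.42 in the outer arm, with 2, to 0.57 in the inner arm, 0.67 in the radial spoke, 0.70 in the doublet lumen, 0.73 in the ruler and nexin link, 0.98 in assembly factors and 1.03 in other cilium genes. No test was made between classes, and their order depends on the processing. With processed signals the inner arm, at 1.35, was the highest class, above other cilium genes (1.34) and assembly factors (1.19), and the doublet lumen (0.68) stood above the central pair alone. Within classes the genes spread widely: radial spoke genes ran from 0.47 to 1.55 and doublet lumen genes from -0.03 to 1.39. The 3 genes that were not called belonged to the outer arm, the central pair and the doublet lumen. Each of these 3 had a channel that was not well above background on at least 1 array.

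Each array gave most of the genes a positive ratio. Median ratios of the 32 genes were 0.82, 0.59, 0.82 and 0.75 on replicates 1 to 4. Spearman correlations between pairs of arrays ran from 0.738 to 0.941 over the 32 genes and from 0.107 to 0.551 over all 20591 features. They describe these arrays, since genes are not independent and arrays of 1 orientation share the dye. Arrays with APPswe/PS1dE9 in Cy5 gave a median of 0.73, against 0.71 for those with it in Cy3, and 21 of 32 genes had the higher ratio in Cy5. Dnah6 differed most in that direction, with means of 1.55 in Cy5 and 0.82 in Cy3, and Drc1 most in the other. Because the fit holds a dye term, such differences do not enter the SE.

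**Figure D3:**
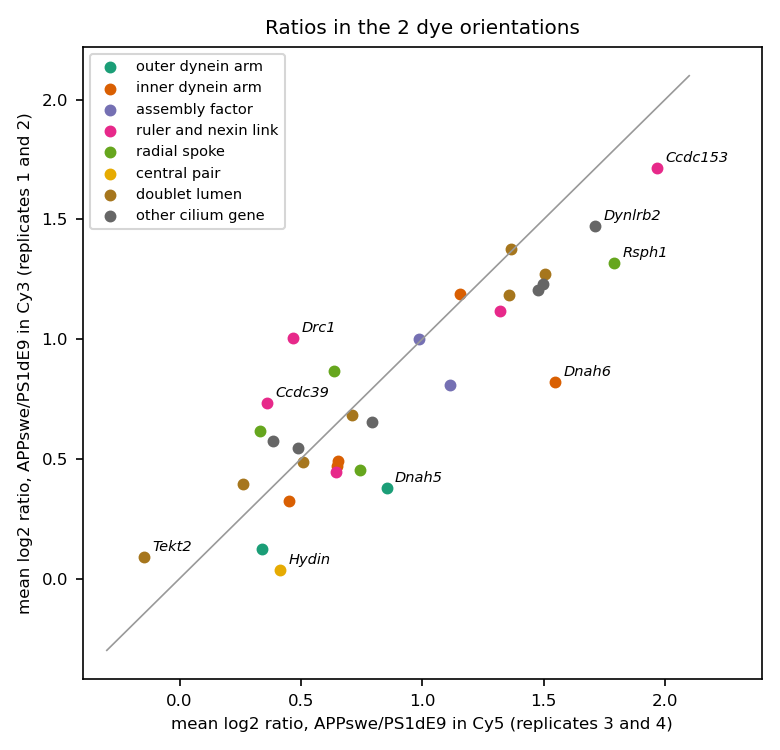
Mean log2 ratio of APPswe/PS1dE9 over WT on the 2 arrays with APPswe/PS1dE9 in Cy5 (x axis) and on the 2 with it in Cy3 (y axis), 1 point per measured axoneme gene, coloured by class; the line marks equal ratios. Dnah6, at 1.55 and 0.82, lies below the line, and Drc1, at 0.47 and 1.00, lies above it.

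How many axoneme genes were called depended on which arrays were used, and at an unadjusted p under 0.05 limma found 0 lower with all arrays. There were 29 with all 4 arrays, 28 without replicate 1, 29 without replicate 2, 15 without replicate 3 and 12 without replicate 4, where 1 residual degree of freedom is left. Of all features, 11% were called higher without replicate 1, 8.45% without replicate 2, 2.52% without replicate 3 and 1.79% without replicate 4, against 8.25% with all arrays, so calls fell over the whole table as well. The median ratio of the axoneme genes was 0.71 without replicate 3 and 0.68 without replicate 4. At an unadjusted p under 0.05, 31 of the 32 were higher without replicate 3 and 30 without replicate 4, against 31 with all arrays. Without replicate 3 the 14 lost calls were those of Dnah5, Dnah2, Dnah7a, Dnah10, Ccdc39, Drc1, Ccdc65, Rsph4a, Rsph9, Mns1, Pifo, Ak8, Stk33 and 1110017D15Rik. Without replicate 4 the calls of Dnali1, Zmynd10, Tekt4 and Tmem212 were lost too and that of Rsph4a was kept, while Pifo alone lost its call without replicate 1. The cultures also differed in sex markers. On replicates 2 and 4, called same-sex arrays here, both cultures had clear signal of the X-linked RNA Xist and neither had the Y-linked Eif2s3y. On replicate 1 APPswe/PS1dE9 had Eif2s3y and WT had Xist, and on replicate 3 APPswe/PS1dE9 had Xist and WT had Eif2s3y. On replicates 2 and 4 alone, 14 genes were called, as were 2.28% of all features. These 2 arrays have opposite dye orientations, so the dye term was left out of that fit and dye differences enter its SE. Of the 29 genes called, 11 kept the call under every alternative run, and these were Dnah6, Dnaaf3, Ccdc113, Ccdc153, Rsph1, Ropn1l, Tekt1, Cfap52, Enkur, Meig1 and Dynlrb2. No alternative turned the ratio of a called gene below 0.

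**Figure D4:**
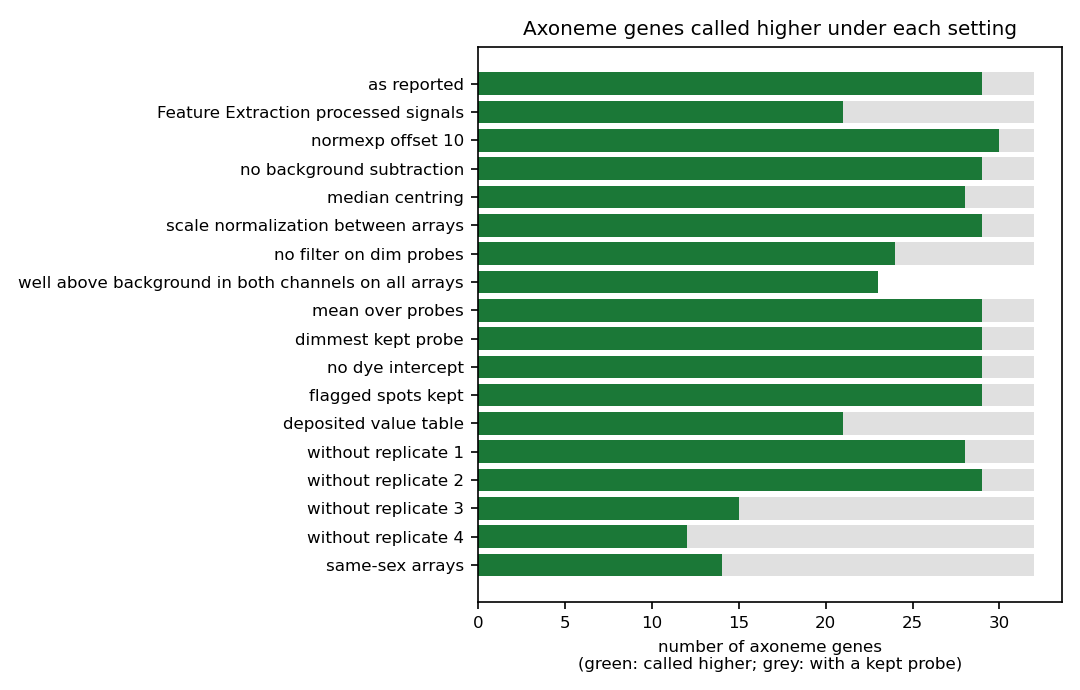
Number of axoneme genes called higher (x axis, green bars from 0) under the reported processing and each alternative (y axis); grey bars give how many of the 32 measured genes had a kept probe under that setting. The count is 29 as reported, 15 without replicate 3 and 12 without replicate 4.

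Further axoneme genes outside the 43 were looked up from a list drawn up with earlier results of these data known. Of 57 listed, 41 were measured, 25 were called higher, 0 were lower and 16 were not called, with a median of 0.44. Of all features, 8.25% were called higher. The list passed the filter partly through the APPswe/PS1dE9 channel: 35 of the 41 were well above background there on all arrays, and 30 in WT. Where only probes well above background in both channels on all arrays were kept, 16 were called higher. Cfap126, which encodes the cilium protein Flattop, was the highest, at 1.78 ± 0.08 and between 0.95 and 1.86 under the alternatives. Gas8, a nexin-dynein regulatory complex subunit, was the lowest, at -0.02 ± 0.07, and its sign turned without replicate 1 or 3. By value Gas8 lay below Drc1 and Ccdc65 of the same complex, whose other subunits were not compared, and that difference was not tested. The count of higher calls was 10 without replicate 3 and 8 without replicate 4, against 2.52% and 1.79% of all features. Of 11 other assembly factors 4 were called higher, against 8.25% of all features. Their median was 0.17, from Pih1d2 (0.80 ± 0.11) down to Spag1 (-0.14 ± 0.09). Without replicate 3 or 4, 0 of the 11 were called by limma, with an unadjusted p under 0.05 in 5 without replicate 3 and in 6 without replicate 4.

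Among 19 measured regulators of multiciliated cells, 6 were called higher and 0 lower, with a median of 0.13. Of all features, 8.25% were called higher. Without replicate 3 or without replicate 4, 2 of the 19 were called, against 2.52% and 1.79% of all features. Foxj1, the forkhead factor that drives motile cilium genes, was at 1.08, 1.13, 1.01 and 1.40 (1.15 ± 0.08) and kept its call under all 17 alternatives run. Ccno, which acts in centriole amplification, was at 0.68 ± 0.10, but was not called with processed signals, without replicate 3 or 4, or on the same-sex arrays. Gmnc, an early regulator of the multiciliated fate, was at 0.29, 1.76, 0.58 and 0.73 and was not called (0.84 ± 0.22), with replicate 2 far above the rest. It was called without replicate 2, at 0.47, and without replicate 1, at 1.21. With median centring it was called at 0.74, and on replicates 2 and 4 alone at 1.25. The RFX factor gene Rfx2 was at 0.27 ± 0.06 and lost its call without any 1 of the 4 arrays. Rfx3 was at 0.07, -0.03, -0.08 and 0.04, so its arrays fell on both sides of 0. Mcidas, another geminin-related regulator, was at 0.13 ± 0.10 and Tfdp1 was the lowest, at -0.20 ± 0.06, and neither was called. With median centring Tfdp1 was called lower, at -0.32.

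Genes shared by motile and non-motile cilia were looked up in the same way, beside 8.25% of all features called higher and 2.28% lower. Of 26 measured genes of intraflagellar transport, the traffic that builds all cilia, 4 were called higher and 0 lower, with a median of 0.15. They ran from Wdr35 (0.37 ± 0.07) to Traf3ip1 (-0.17 ± 0.14), and limma called 0 higher without replicate 3 or 4. Without replicate 1, Traf3ip1 was called lower, at -0.40. At an unadjusted p under 0.05, 11 were higher with all arrays, 9 without replicate 3 and 8 without replicate 4. Of 25 genes of the transition zone and BBSome, the gate and the cargo adaptor of the cilium, 2 were called higher and 0 lower. That count lay near the share of all features called higher (8.25%), so nothing is read from it. The median of the 25 was 0.10, from Tctn2 (0.43 ± 0.07) to Arl13b (-0.09 ± 0.07). Tctn2 lost its call without replicate 3 or 4, when limma called 0 of the 25. An unadjusted p under 0.05 was found in 7 with all arrays, 6 without replicate 3 and 5 without replicate 4.

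**Figure D5:**
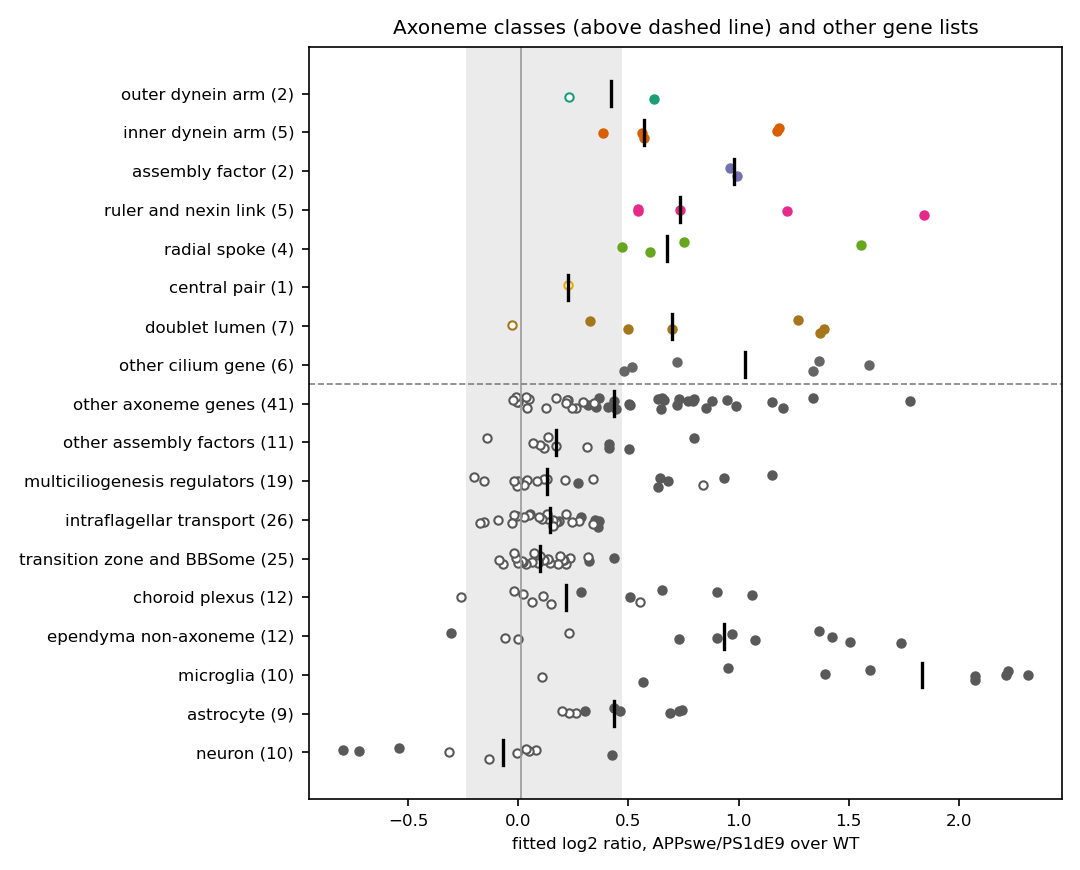
Fitted log2 ratio of APPswe/PS1dE9 over WT (x axis) of every measured gene in the 8 axoneme classes (above the dashed line) and in 10 other gene lists (below it), with the number measured in brackets. Filled points were called, open points were not, black ticks are medians, and the grey band spans the 5th to the 95th percentile of all features; medians reach 1.03 in the classes, 0.15 in intraflagellar transport and 1.84 in microglia.

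Marker genes of several cell types moved alongside the axoneme genes, and their part in the ratios was not tested. Over all features, 8.25% were called higher and 2.28% lower. Of 12 measured ependymal markers that are not axonemal, 8 were called higher and 1 lower, with a median of 0.94. The lists share genes: of those 8, Vim also stands among the neural progenitor, Aqp4 among the astrocyte and Calml4 among the choroid plexus markers. Rarres2, a secreted chemoattractant precursor, was at 1.74 ± 0.07. Cd24a was at -0.30 ± 0.06 and was not called without replicate 2, 3 or 4. Their channel levels, added up on the linear scale and then given as log2, ran from 16.3 to 16.6 in APPswe/PS1dE9 and from 15.8 to 16.1 in WT. Without Vim, the brightest of the 12, the sums were 15.31 to 15.49 in APPswe/PS1dE9 and 15.19 to 15.25 in WT. Choroid plexus markers were called higher in 5 of 12 cases, with a median of 0.22 and sums of 13.3 to 13.8 in APPswe/PS1dE9 and 13.0 to 13.2 in WT. They ran from Ttr, which encodes a thyroid hormone carrier (1.06 ± 0.13), to Lmx1a (-0.26 ± 0.11), and without replicate 3 or 4 Ttr was not called and 2 of the 12 were. Without Ttr, the brightest of these 12, the sums overlapped, at 12.6 to 12.8 in APPswe/PS1dE9 and 12.3 to 12.7 in WT. Leaving out the brightest marker was a choice made after seeing the data.

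The counts below stand beside 8.25% of all features called higher and 2.28% lower. Microglial markers were higher as well. Of 10 measured, 9 were called higher, with a median of 1.84, from Cx3cr1 (2.31 ± 0.08) to Itgam (0.11 ± 0.10), and their sums ran from 13.6 to 14.0 in APPswe/PS1dE9 and from 13.1 to 13.4 in WT. All 10 were well above background in APPswe/PS1dE9 on all arrays and 5 in WT, so the ratios rest partly on dim WT channels. Itgam was the brightest of the 10, and without it, a choice made after seeing the data, the sums were 12.2 to 12.4 in APPswe/PS1dE9 and 10.6 to 10.8 in WT. Astrocyte markers were called higher in 6 of 9 cases (median 0.43, Mlc1 at 0.75 ± 0.06 and Aldh1l1 at 0.20 ± 0.06), with sums of 17.6 to 17.7 in APPswe/PS1dE9 and 17.0 to 17.4 in WT. Neuronal markers were called higher in 1 and lower in 3 of 10 cases (median -0.07), from Syt1 (0.43 ± 0.10) to Nefm (-0.80 ± 0.07), with sums of 16.7 to 16.9 in APPswe/PS1dE9 and 16.8 to 17.1 in WT. Syt1, the 1 higher call, was not called under 10 of the 17 alternatives, among them each fit without replicate 2, 3 or 4. Neural progenitor markers were called higher in 3 and lower in 1 of 10 (median -0.09), from Vim (0.97 ± 0.08) to Hes5 (-0.63 ± 0.07), which was not called without replicate 3 or 4 or on replicates 2 and 4 alone. None of 9 oligodendrocyte lineage markers was called by limma, and 2 had an unadjusted p under 0.05 (median 0.07, Cspg4 at 0.32 ± 0.09 and Olig2 at -0.21 ± 0.07). With median centring Olig2 was called lower, at -0.35. Endothelial and mural markers gave 1 higher and 1 lower call among 5, with a median of 0.17. They ran from Acta2 (0.46 ± 0.19), which was not called with all arrays, to Pdgfrb (-0.45 ± 0.06). Acta2 was called higher without replicate 1 (0.74) and on replicates 2 and 4 alone (0.90), and Pdgfrb was not called without replicate 3 or 4 or on replicates 2 and 4 alone. Fibroblast and meningeal markers gave 1 lower call among 6 (median -0.15, Col1a1 at -0.03 ± 0.21 and Lum at -0.62 ± 0.06).

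On the whole array, 47.5 to 59.6% of spots were well above background per channel and 0 were saturated. Mouse App, the gene whose mutant form is one of the transgenes, was at 0.12 ± 0.06 and was not called, and the array annotation does not say whether its probe reads the transgene. The dye term was called in 0 features by limma, and 3114 had an unadjusted p under 0.05 for it.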

How the data were processed

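Total RNA (100 ng per culture) was amplified, labelled and hybridised to Agilent two-colour arrays, per the labels' protocols. The authors deposited scanner files of Feature Extraction 11.0.1.1 with median spot and local background intensity in both channels, not normalized, per the file headers. Also deposited, per the file headers, was each spot's processed intensity after background subtraction and dye normalization, with a log10 ratio of Cy5 over Cy3. The deposited value table was found, by comparison with the scanner files, to hold log2 ratios of APPswe/PS1dE9 over WT. The headers name array annotation mm9, 1 slide and 1 scan.

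Here median intensity was background-corrected (normexp, offset 50) and loess-normalized within arrays in limma 3.58.1 (R 4.3.3), with control and outlier spots at weight 0 and then left out. Channel values, used for the overlap of channels and for channel sums, were also quantile-normalized between arrays (Aquantile). Probes well above background in 1 genotype's channel on at least 3 of 4 arrays were kept (26912 of 55681). Accessions matched 27509 probes to 20887 symbols of the GRCm38.p6 RefSeq table, and a gene's brightest kept probe stood for it. Log2 ratios were fitted with lmFit and eBayes (genotype and dye coefficients, two-sided, Benjamini-Hochberg adjustment over 20591 features, threshold 0.05). The fit was tested on simulated ratios with independent noise and known changes, which checks the code and not these data. Arrays give no read depth, and their number limits the precision. Each array pairs 1 culture of each genotype, so the pairing lies within the ratio.

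The members and all gene lists were chosen with earlier results of these data known. Per-array ratios are given for the highest and lowest gene of each class and for every gene not called. Of each other list, the highest and lowest genes are named, with Foxj1, Rfx2, Rfx3, Mcidas, Gmnc, Ccno and Ttr. Alternatives changed the background correction, normalization, filter, choice of probe, dye term, flagged spots, value source and arrays.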

Additional observations from a re-analysis of the deposited data

Results flagged for a closer look

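On 4 arrays, 66 named genes were checked for 1 array lying far from the other 3, and 6 had one (chance flags about 1 in 20 groups). Among the axoneme genes, Ccdc39 was at 1.05 on replicate 1, with the others at 0.30 to 0.42. Stk33 was at 0.745 on the same array, with the others at 0.36 to 0.41. Ccdc153 was at 1.47 on replicate 2, below the others at 1.93 to 2.00, and Enkur was at 1.02 there, below the others at 1.49 to 1.52. Among genes of the other lists, Spag1 was at -0.53 on replicate 2, with the others at -0.07 to 0.02, and Traf3ip1 was at -0.82 on replicate 2, with the others at -0.02 to 0.08.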

How the results depend on the processing

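Called axoneme genes kept a ratio above 0 under each alternative run, and the cause of the changes below was not tested. With single arrays left out, axoneme genes called higher numbered 12 to 29, features called higher 368 to 2256 and features called lower 4 to 517, against 29, 1698 and 470 with all arrays. Such fits have 1 residual degree of freedom. The same-sex arrays gave 14, 470 and 11. All features gave 715 higher and 240 lower calls with processed signals, 725 and 238 with the deposited value table, and 960 and 103 with no filter on dim probes. Lower calls numbered 284 with no background subtraction, 259 with no dye intercept and 1307 with median centring, where the median of all features was -0.07 and 28 axoneme genes were called. The median ratio of the axoneme genes (0.71) was 1.12 with processed signals or the value table, 0.84 with an offset of 10, 0.57 with no filter and 0.96 where only probes well above background in both channels on all arrays were kept. Those last 2 settings changed which genes were counted, here and in the class medians below. Without a filter, genes too dim to keep were taken in, and the strict filter left 23 of the 32. Class medians with processed signals were 0.77 in the outer arm, 1.35 in the inner arm, 1.19 in assembly factors, 0.77 in the radial spoke and 1.34 in other cilium genes. With the value table they were 0.77, 1.345, 1.19, 0.77 and 1.33. An offset of 10 gave 0.86 in the inner arm, 1.14 in assembly factors and 0.77 in the radial spoke. The radial spoke was at 0.73 with no background subtraction, 0.63 with median centring, 0.63 with the mean over probes and 0.59 with the dimmest kept probe. No filter gave 0.60 in the doublet lumen and 0.72 in other cilium genes, and the strict filter gave 1.18 in the inner arm and 0.98 in the doublet lumen and left no outer arm or central pair gene. X-box shares were 7.89% for exact matches and 39.5% with 1 mismatch allowed. Signs turned for several genes, most of them near 0. With single arrays left out, Tekt2 ran from -0.15 to 0.10, Col1a1 from -0.34 to 0.27, Gas8 from -0.091 to 0.046, Traf3ip1 from -0.40 to 0.047, Rfx3 from -0.030 to 0.030, Itgam from -0.032 to 0.25 and Mcidas from -0.0021 to 0.27. On the same-sex arrays Col1a1 was at 0.44, Gas8 at 0.071 and Itgam at -0.013. Traf3ip1 was at 0.15 with processed signals and the value table and at 0.048 with no background subtraction. Rfx3 was at -0.18 with processed signals, -0.19 with the value table, -0.011 with an offset of 10, -0.023 with median centring and -0.0010 with flagged spots kept. Median centring put Itgam at -0.064 and Mcidas at -0.034. A slide block was not run because all arrays lay on 1 slide and 1 scan, and no paired analysis beyond the ratios was possible because each array already pairs 1 culture of each genotype. Probe brightness limits the dim genes: 9 of the 32 were not well above background in every channel.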
